A study of Mus musculus with 6 samples.

Results

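The lysosome genes described here are 46 mouse genes, out of 21887 protein-coding genes of the reference annotation, that encode proteins of the lysosome, the acidic compartment in which cells break down proteins, sugars and lipids. They were chosen by name, with earlier results of these data known. They are 10 proteases, 9 glycosidases, 9 other proteins of the lumen, 9 membrane proteins and 9 proteins of the proton pump. A peak was counted at a member when its position was inside the gene or at most 5 kb from either end. The peaks are those of hnRNP UL1 (heterogeneous nuclear ribonucleoprotein U-like 1), an RNA-binding protein of the nucleus that also acts where DNA breaks are repaired. Chromatin immunoprecipitation with a Proteintech antibody and sequencing (ChIP-seq) had been done in RAW 264.7 cells, a mouse macrophage line from a tumour induced by Abelson leukaemia virus. Cells were left untreated (0 h) or received lipopolysaccharide (LPS), a Gram-negative outer-membrane glycolipid sensed by Toll-like receptor 4, at 100 ng/ml for 4 h or 10 h. The series holds 1 ChIP library and 1 input library per time, 6 in all, and the 3 ChIP peak tables are analysed here.

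Lysosomal hydrolases are made in the endoplasmic reticulum and sorted to the lysosome, most of them by mannose 6-phosphate receptors. A vacuolar-type ATPase pumps protons into the lumen and so gives the low pH that these enzymes need, and membrane proteins protect the boundary and carry cholesterol, ions and breakdown products out. In macrophages the lysosome digests phagocytosed microbes and dead cells and trims antigens for presentation. Many lysosome genes carry an E-box variant in their promoter, the CLEAR element (coordinated lysosomal expression and regulation), which the transcription factors TFEB, TFE3 and MITF bind.

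Each row of the tables places 1 peak as a point of 2 bp and names its nearest gene. No height, fold enrichment, q-value or read depth is among the columns, so a peak is present or not present, depth is unknown, and a missing peak does not show missing binding. There are 8425 peaks at 0 h, 9046 complete rows at 4 h and 1153 at 10 h. The rows are sorted by Ensembl gene ID, and the 4 h and 10 h tables end earlier than the 0 h table, at ENSMUSG00000027620 and ENSMUSG00000022416. The whole 0 h table was used for untreated cells. Times were compared only over peaks with a nearest-gene ID that the shorter table reaches: the longer range for 4 h and 0 h, the common range for all 3 times. With 1 library per time no difference between times could be tested. The 95% intervals in parentheses are exact and cover counting error only, and neighbouring peaks are not independent of each other. As a check of the labelled cell type, 5 of 10 macrophage marker genes held a 0 h peak (Lyz2, Spi1, Csf1r, Fcgr1 and Cd68), against 1 of 4 T cell, 2 of 3 B cell, 1 of 3 hepatocyte, 0 of 3 fibroblast and 0 of 3 neuron markers. Peak presence is not expression, and these counts do not identify a cell type.

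The stretches below show the promoters of 6 members with a peak within 1 kb of a start, taken from RefSeq (GRCm38.p6, the build of the peak tables). Members with an E-box were taken before others, and Npc2 is shown as the member with the most peaks over all times. Each runs 5′ to 3′ on the minus strand, the coding strand of all 6 genes, from 150 bases before the start site to 10 bases after it. Capitals mark CACGTG, the E-box, or TCACGTGA, the core of the CLEAR element, which contains the E-box.
Atp6v0d1, chr8:105566055-105566214: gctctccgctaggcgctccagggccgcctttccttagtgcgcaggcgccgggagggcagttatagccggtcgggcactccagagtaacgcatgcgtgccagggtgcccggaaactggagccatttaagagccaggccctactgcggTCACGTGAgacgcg
Atp6v1a, chr16:44139250-44139409: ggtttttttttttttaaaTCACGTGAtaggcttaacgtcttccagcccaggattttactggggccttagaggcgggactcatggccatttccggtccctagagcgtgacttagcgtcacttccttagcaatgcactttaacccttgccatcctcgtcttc
Tmem55b, chr14:50930840-50930999: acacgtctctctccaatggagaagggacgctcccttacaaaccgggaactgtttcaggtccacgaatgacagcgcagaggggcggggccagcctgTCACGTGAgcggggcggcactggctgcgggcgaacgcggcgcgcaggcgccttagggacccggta
Lgmn, chr12:102439083-102439242: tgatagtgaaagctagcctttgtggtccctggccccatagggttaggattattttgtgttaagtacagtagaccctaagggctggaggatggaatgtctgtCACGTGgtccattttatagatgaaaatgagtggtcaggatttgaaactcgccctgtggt
Sgsh, chr11:119355501-119355660: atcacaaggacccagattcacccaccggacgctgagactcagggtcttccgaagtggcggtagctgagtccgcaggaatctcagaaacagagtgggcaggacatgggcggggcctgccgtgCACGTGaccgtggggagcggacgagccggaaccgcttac
Npc2, chr12:84773103-84773262: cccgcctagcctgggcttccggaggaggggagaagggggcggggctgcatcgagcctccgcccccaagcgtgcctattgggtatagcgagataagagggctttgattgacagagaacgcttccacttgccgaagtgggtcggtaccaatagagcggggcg

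The CLEAR core began 4 bases before the start of Atp6v0d1 (subunit d1 of the proton pump), 132 bases before that of Atp6v1a (the catalytic pump subunit) and 55 bases before that of Tmem55b, a phosphoinositide phosphatase of the lysosomal membrane. Lgmn (legumain, an asparaginyl endopeptidase) and Sgsh, a sulfatase of heparan sulfate breakdown, had a plain E-box 49 and 29 bases before their starts. No capitals stand in the Npc2 stretch, which says only that these letters are not in this window. RefSeq promoters of 300 bases, from 250 before to 50 after a start, were found for 40 members. An E-box lay in 15 of them (37.5%, 22.7 to 54.2), against 8.91% of 17492 genes, on either strand. The CLEAR core lay in 8 (20.0%, 9.05 to 35.6), against 1.41% of all genes: Atp6v0d1, Atp6v1a, Cln3, Ctsa, Ctsd, Gla, Mcoln1 and Tmem55b. These shares come from reference sequence alone. Many lysosome genes are known to carry the CLEAR element, so the excess is not a result of the ChIP data.

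Among the members, the AP-1 and PU.1 motifs were found in fewer genes than the E-box and the CLEAR core. TGACTCA, an AP-1 site, was found in 3 members (7.50%, 1.57 to 20.4), against 5.40% of all genes, and GAGGAAGT, a PU.1 site, in 4 (10.0%, 2.79 to 23.7), against 3.64%. Of the 8 members with the CLEAR core 7 held a 0 h peak in their region, and of the 32 without it 16 did. For the E-box the counts were 11 of 15 with it and 12 of 25 without. Counting only peaks in the region of no other protein-coding gene, which leaves out those of Ctsa, Gla, Mcoln1 and Tmem55b, 3 of the 8 with the CLEAR core and 10 of the 32 without it held one, and 5 of the 15 with the E-box and 8 of the 25 without it. These are descriptions of small groups, a match is not a bound site, and no peak position was tied to a motif.

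**Figure D1:**
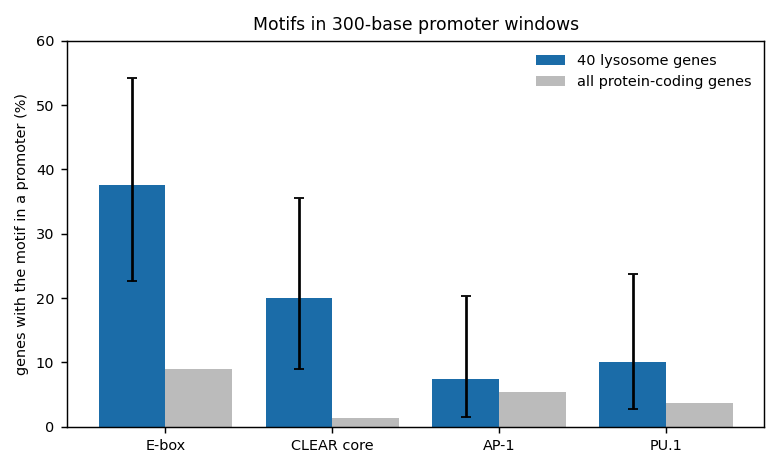
Percent of genes with each motif in a 300-base promoter window, for 40 lysosome genes (blue, with exact 95% intervals) and for all 17492 protein-coding genes with a promoter sequence (grey). The E-box stands at 37.5% against 8.91% and the CLEAR core at 20.0% against 1.41%, while the intervals of AP-1 and PU.1 include the grey bars.

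In untreated cells 29 of the 46 lysosome genes held at least 1 hnRNP UL1 peak (63.0%, 47.5 to 76.8), against 19.3% of all protein-coding genes. Because the members were chosen with earlier results of these data known, this contrast is a description and not an independent test. At least 3 peaks lay at 9 members (19.6%, 9.36 to 33.9), against 2.66% of all. Another 14 members held 1 peak and 6 held 2. The other 17 held none: Ctsc, Ctsk, Ctsz, Tpp1, Gaa, Galc, Glb1, Man2b1, Neu1, Gm2a, Smpd1, Lamp1, Lamp2, Cd63, Cln3, Scarb2 and Atp6ap1. The median was 1 peak per member and 0 per protein-coding gene. Gene length differed little, with a median of 16385 bp for members and 17169 bp for all, and among the 18134 genes within the members' length range 20.8% held a peak. Together the members held 68 peaks, 0.807% (0.627 to 1.02) of the 0 h table, or 38.5 peaks per Mb over 1.77 Mb of member regions, against 5.30 per Mb over 1182 Mb of all protein-coding regions.

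The region rule decides part of these counts. Within the gene span alone 19 members held a peak (41.3%, 27.0 to 56.8), against 14.2% of all genes, and 10 members held peaks only in the flanks. Counting only peaks that lie in the region of no other protein-coding gene, 19 members held one (41.3%), against 13.6%. A lysosome gene of the list was named as nearest for 36 of the 68 peaks, another named gene for 25 and a gene without a name for 7. Just inside the 5 kb limit lay the peaks of Gla (4609 bp from the gene), Cd68 (4953 bp) and Naglu (4957 bp), and just outside it those of Scarb2 (6812 bp) and Glb1 (8555 bp).

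**Figure D2:**
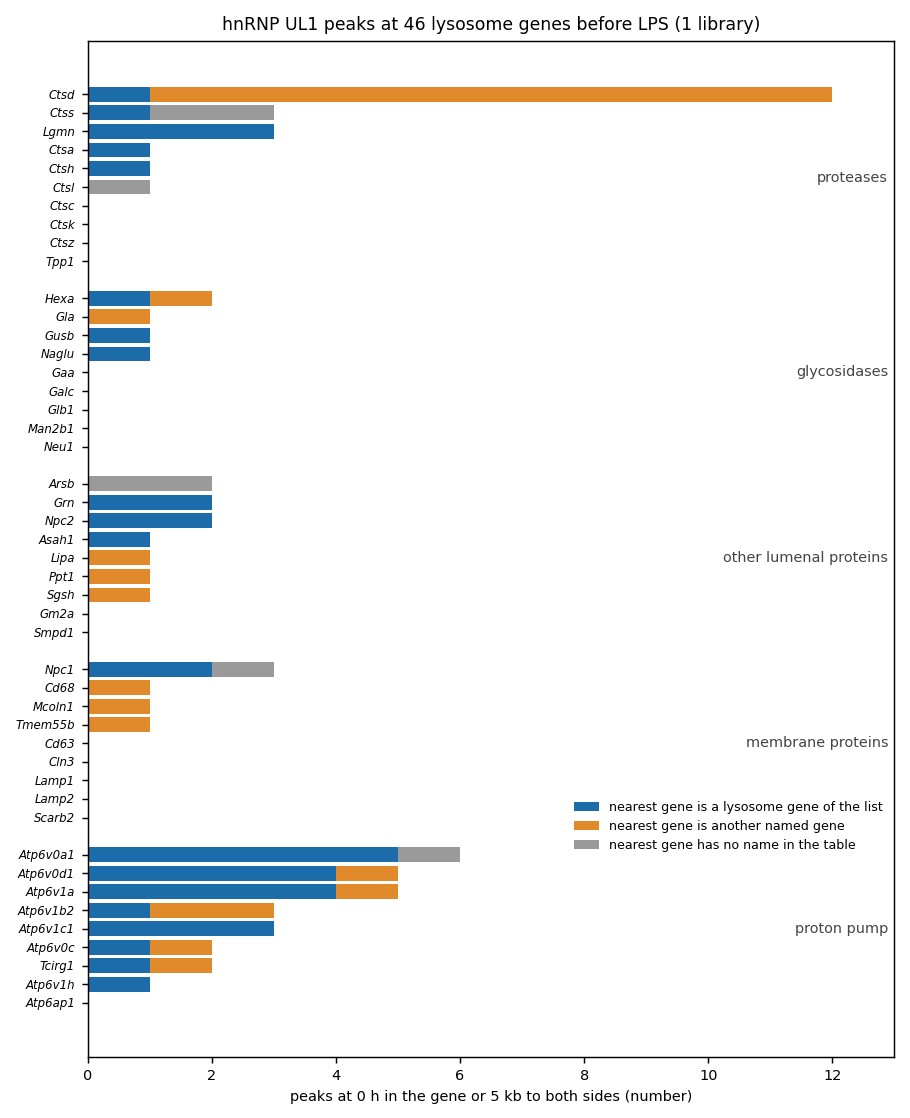
Number of 0 h peaks in each of the 46 lysosome genes and 5 kb to both sides, ordered by function, with colours for the gene that the table names as nearest. Ctsd has 12, of which 11 name another gene, and 8 of the 9 proton pump genes of the list have a peak.

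The proton pump was the group with the most members occupied. At 0 h 8 of its 9 members held 27 peaks, or 6.74 per 100 kb of region. This describes the chosen members, since of 11 additional pump subunits 3 held a 0 h peak (27.3%). The proteases held 21 peaks at 6 of 10 genes (7.16 per 100 kb), 12 of them at Ctsd. The other lumenal proteins held 10 at 7 of 9 genes (2.31 per 100 kb), the membrane proteins 6 at 4 of 9 (1.84) and the glycosidases 5 at 4 of 9 (1.56). The groups were not tested against each other.

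Among the proteases, Ctsd (chr7:142375910-142387827, minus strand) encodes cathepsin D, the main aspartic protease of the lysosome. It held 12 peaks at 0 h, the most of any member: 1 upstream, 8 in the gene and 3 downstream of its end. Those in the gene began 3054 bp from its 5′ end. Merging peaks within 1000 bp of a neighbour left 7. The tables name Ifitm10 or Gm49369, whose IDs lie beyond the end of the 4 h table, for 11 of the 12. Those 11 therefore cannot be compared with LPS, and Ctsd counts 1 peak at 4 h and 1 at 0 h in the longer range, 3960 and 2131 bp upstream.

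Ctss, a cysteine protease that trims the invariant chain of MHC class II, held 3 peaks at 0 h. They lay 326, 4594 and 9572 bp into the gene, and the table gives no name for the gene nearest to the last 2. Lgmn had 3 peaks at 0 h, then 3 at 4 h and 1 at 10 h. A 4 h peak 184 bp from its 5′ end and a 0 h peak 141 bp from it lay 43 bp apart. They were 452 and 495 bases upstream of the start site shown above, which is another RefSeq start than the 5′ end of the gene. The 10 h peak, in the first intron 7450 bp from the 5′ end, lay 344 bp from a 4 h peak, and no 10 h peak stood at the start.

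Ctsz, a carboxypeptidase, had no peak at 0 h, then 7 at 4 h and 2 at 10 h. The 4 h peaks lay 835, 2075, 2635, 3746, 4536 and 10220 bp into the gene and 14507 bp from its 5′ end, beyond its 3′ end at the start of Nelfcd. Both 10 h peaks lay near 4 h peaks, at 357 and 317 bp. Ctsa, a carboxypeptidase that also stabilises beta-galactosidase and neuraminidase, held 2 peaks at 4 h and 1 at 0 h, all beyond its 3′ end inside the neighbouring gene Pltp. Ctsh, an aminopeptidase, held 1 peak at 0 h in intron 7 of 11. Ctsl, an endopeptidase, held 1 downstream at 0 h, 18 bp from the start of an unnamed gene. Ctsc, which activates granule proteases, Ctsk, a collagen-degrading protease, and Tpp1, a tripeptidyl peptidase, held no peak in any table. No row names these genes or the other members without a peak, so whether the 4 h and 10 h tables reach them is not known.

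**Figure D3:**
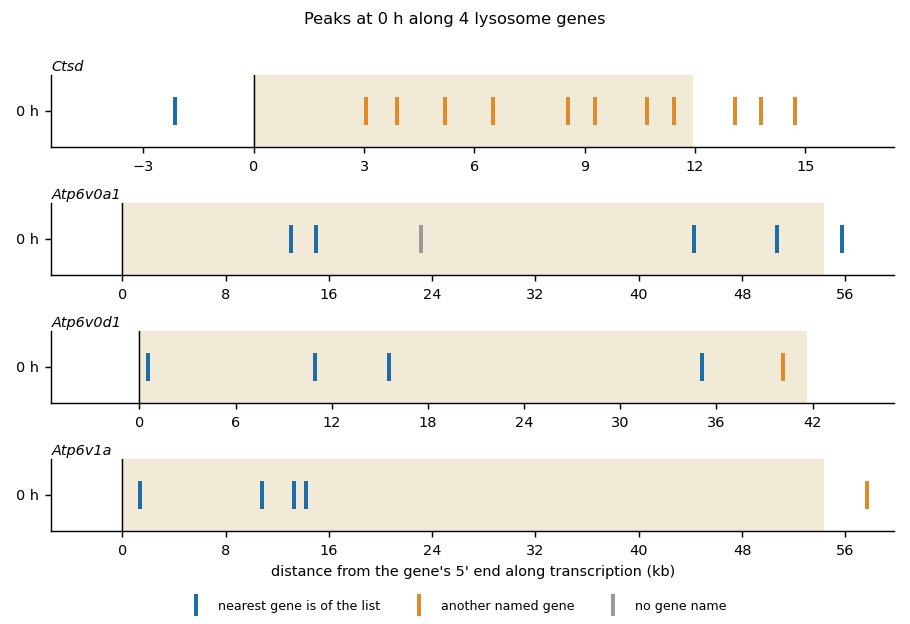
Positions of 0 h peaks (ticks) along 4 lysosome genes, in kb from the gene's 5′ end, with the gene shaded and colours for the gene named as nearest. The 12 peaks of Ctsd are spread over the gene and its 3′ flank, while Atp6v1a has 3 of its 5 in the first intron.

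The glycosidases held few peaks. Hexa, the alpha subunit of beta-hexosaminidase, had 2 at 0 h, of which 1 lay 147 bp from its 5′ end. Only that peak counts in the longer range, where Hexa held none at 4 h. The other names Celf6, beyond the end of the 4 h table. Gusb (beta-glucuronidase) held 1 peak at 4 h and 1 at 0 h, 1757 and 12335 bp from its 5′ end. Galc, which removes galactose from galactosylceramide, held 2 peaks at 4 h, 262 bp upstream and 1903 bp inside, and none at 0 h or 10 h. The 0 h peak of Gla (alpha-galactosidase A) lay 9 bp from the start of Btk, and that of Naglu (alpha-N-acetylglucosaminidase) is also the downstream peak of Atp6v0a1. Man2b1, a lysosomal mannosidase, had 1 peak at 4 h, 4004 bp upstream in Wdr83. Gaa, Glb1 and Neu1, which act on glycogen, beta-galactosides and sialic acid, held none in any table.

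Among the other lumenal proteins Npc2 (chr12:84754559-84773112, minus strand), a soluble protein that hands cholesterol to NPC1, had 2 peaks at 0 h, then 18 at 4 h and 3 at 10 h. It had the highest 4 h count and the highest 10 h count of the members. The 4 h peaks ran from 148 bp inside the start to 21583 bp, past the 3′ end, with 13 in the gene and 5 downstream. Merging peaks within 1000 bp of a neighbour left 7 more peaks at 4 h than at 0 h. Each 0 h peak lay near a 4 h peak, at 53 bp in the last intron and 117 bp in the first. Each 10 h peak did as well, at 32, 35 and 160 bp.

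Lipa, the acid lipase of cholesteryl esters, held 5 peaks at 4 h, 209, 1089, 8396, 8896 and 10408 bp into the gene, and none at 0 h in the longer range. Its 0 h peak past the 3′ end names Ch25h, beyond the end of the 4 h table. Grn (progranulin) held 2 peaks at 0 h, 427 and 3813 bp into the gene, and Arsb (arylsulfatase B) held 2, at 953 and 6498 bp. Asah1 (acid ceramidase), Ppt1 (palmitoyl-protein thioesterase) and Sgsh held 1 each at 0 h. That of Sgsh lay 381 bp upstream of the start shown above, inside Slc26a11. Gm2a, the activator of GM2 ganglioside breakdown, held 1 peak at 4 h, 512 bp upstream, and none at 0 h or 10 h. Smpd1 (acid sphingomyelinase) held none.

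Of the membrane proteins 3 could be compared between 4 h and 0 h, and each held more peaks at 4 h, as did 72.9% of all genes of the longer range. Lamp2 and Cd63 entered that range through 4 h rows alone. Lamp2, a main glycoprotein of the lysosomal membrane, held 4 peaks at 4 h and none at 0 h or 10 h, 419, 10990, 12038 and 19971 bp into the gene. Npc1, the membrane cholesterol transporter, held 4 at 4 h and 2 at 0 h in the longer range, and a 4 h and a 0 h peak lay 388 bp apart. Its other 0 h peak, near its 3′ end inside Rmc1, has a nearest gene beyond the 4 h table. Cd63, a tetraspanin, held 3 peaks at 4 h and none at 0 h, of which 1 lay inside the gene and the others next to Gdf11 and Rdh5. Cd68, a macrophage glycoprotein, held 1 peak at 4 h and 1 at 0 h, both in neighbouring genes (Mpdu1 and Eif4a1), and was not placed in a range because no row names it.

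The 0 h peak of Mcoln1, a calcium channel of the lysosome, lay at the start of Pnpla6, past its 3′ end. That of Tmem55b lay 438 bases upstream of the start site shown above, 205 bp from the start of Pnp. Lamp1, Cln3, a membrane protein lost in a neuronal storage disease, and Scarb2, the receptor that carries beta-glucocerebrosidase, held no peak in any table.

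In the proton pump Atp6v0a1 (subunit a1 of the membrane sector; chr11:101009422-101063719) held 6 peaks at 0 h, of which 5 count in the longer range, against 6 there at 4 h and 1 at 10 h. The 0 h peaks lay 13055, 15017, 23129, 44291 and 50683 bp into the gene and 55711 bp from its 5′ end, beyond its 3′ end. In the last intron a 4 h and a 0 h peak lay 153 bp apart. None of its 0 h or 4 h peaks lay within 5 kb of the reference 5′ end.

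Atp6v0d1 held 1 peak at 4 h and 4 at 0 h in the longer range, the largest deficit at 4 h among the members. Those 4 lay 508, 10937, 15587 and 35129 bp into the gene, and the peak at 508 bp follows the CLEAR core shown above. The whole 0 h table held 5, since another peak, 40173 bp into the gene, names Hsd11b2, beyond the end of the 4 h table. Atp6v1a held 5 peaks at 0 h, 1393 bp from its 5′ end, 10787, 13269 and 14198 bp inside in the first intron, and 57675 bp from it beyond the 3′ end. Its ID lies beyond the end of the 4 h table.

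Atp6v1b2 (subunit B2 of the catalytic sector) held 7 peaks at 4 h and 1 at 0 h in the longer range, and 2 more 0 h peaks, 1112 and 2903 bp into the gene, name Slc18a1 beyond it. At 4 h a peak lay 206 bp from its 5′ end, and 145 bp separated a 4 h peak from the 0 h peak downstream. Past the 5 kb limit 1 row at 0 h, 2 at 4 h and 1 at 10 h also name Atp6v1b2. Atp6v1c1 (subunit C1) had 3 at either time, and 3 more 0 h rows past the limit name it. Tcirg1 (subunit a3, used in osteoclasts and macrophages) and Atp6v0c (the proteolipid of the rotor ring) each held 2 at 4 h and 1 at 0 h in the longer range. At 0 h Tcirg1 was marked 663 bp upstream and Atp6v0c 401 bp inside. Another 0 h peak of each names a gene beyond the end of the 4 h table, Ndufs8 for Tcirg1 and Amdhd2 for Atp6v0c. Atp6v1h, a regulatory subunit, held 1 at 0 h in intron 10 of 12, and Atp6ap1, an accessory protein, held none.

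Over the longer range, 22 members are named by a 0 h or 4 h row and could be compared. Their regions counted 72 peaks at 4 h and 26 at 0 h, 2.77 times as many, while all peaks of the range numbered 9045 at 4 h and 2225 at 0 h, 4.07 times as many. Per 1000 peaks of the range the members held 7.96 (6.23 to 10.0) at 4 h and 11.7 (7.65 to 17.1) at 0 h, a ratio of 0.681 (0.430 to 1.11). Npc2 carried 18 of the 72, and without it the ratio was 0.553 (0.336 to 0.936). Without the proton pump genes it was 1.05 (0.550 to 2.15), from 51 peaks at 4 h and 12 at 0 h, and for peaks within 1 kb of a start it was 1.24 (0.471 to 3.81), from 18 and 6.

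A 4 h peak lay at 18 of the 22 (81.8%, 59.7 to 94.8), against 83.8% of 3371 protein-coding genes that these rows name. A 0 h peak lay at 14 (63.6%, 40.7 to 82.8), against 36.3%. More peaks at 4 h than at 0 h were counted at 13 members (59.1%), against 72.9% of all, and fewer at 3 (13.6%), against 10.5%. The 13 were Npc2, Ctsz, Atp6v1b2, Lipa, Lamp2, Cd63, Galc, Npc1, Atp6v0a1, Atp6v0c, Ctsa, Gm2a and Tcirg1, and 6 of them had no 0 h peak in the longer range. Those 6 (Ctsz, Lipa, Lamp2, Cd63, Galc and Gm2a) are named by 4 h rows alone, so they could not have held fewer at 4 h. They are included in the totals, ratios and means of this range. Genes of the background entered the range by the same rule. The 3 with fewer were Atp6v0d1, Hexa and Naglu. Hexa entered the range through a 0 h row alone. The count of Naglu depends on the 5 kb limit. Its 0 h peak lay 4957 bp upstream, and a 4 h peak 544 bp from that one lay 5501 bp upstream, past the limit. By the gene named as nearest, Naglu had 3 peaks at 4 h and 2 at 0 h. Atp6v1c1, Ctsd, Gusb and Lgmn held equal numbers, and Ctsl and Sgsh held none in the range, since the 4 h rows that name them lie beyond 5 kb. The mean was 3.27 peaks at 4 h and 1.23 at 0 h per member, against 2.30 and 0.592 over all genes of the range, and the median difference was 1 peak in both. The part that the total number of peaks per library has in these differences was not tested.

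By function, 24 peaks at 4 h and 2 at 0 h lay at the other lumenal proteins, mostly at Npc2, 13 and 5 at the proteases, 11 and 2 at the membrane proteins, and 3 and 3 at the glycosidases. The proton pump genes held 21 at 4 h and 15 at 0 h, and their share of the peaks of the range at 4 h was 0.344 (0.169 to 0.718) of that at 0 h. Another 5 pump subunits of the longer range, which are not members, had 14 at 4 h and 1 at 0 h. All of them except Atp6v1d had no 0 h peak, so they could not have held fewer at 4 h. For the other lumenal proteins the same ratio was 2.95 (0.733 to 25.8). These ratios were not adjusted for the number of groups.

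**Figure D4:**
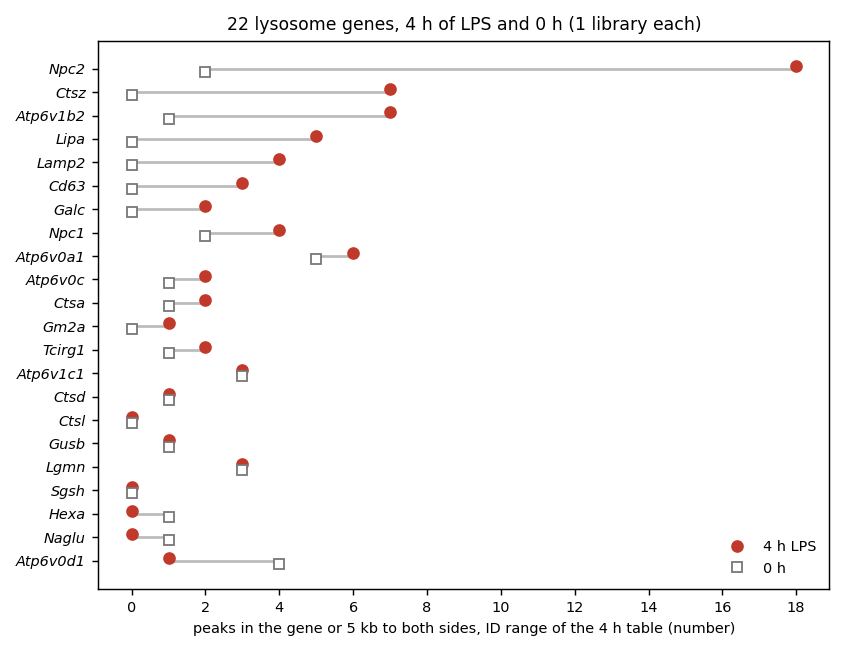
Number of peaks at 4 h of LPS (red circles) and at 0 h (open squares) in the 22 lysosome genes of the longer range, ordered by the difference. Npc2 stands at 18 against 2 and Ctsz at 7 against 0, while Atp6v0d1 stands at 1 against 4.

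Over the common range of all 3 times 16 members could be compared. Their peaks numbered 21 at 0 h, then 56 at 4 h and 7 at 10 h. The range as a whole held 1312, 5298 and 1152. At 10 h 3 peaks lay at Npc2, 2 at Ctsz and 1 each at Lgmn and Atp6v0a1, so that 4 of 16 members held a peak (25.0%, 7.27 to 52.4), against 30.4% of 2070 genes. Fewer peaks at 10 h than at 4 h were counted at 13 members (81.2%), against 72.6%. Compared with 0 h, 2 members held more at 10 h (12.5%), against 20.3%, and 9 held fewer (56.2%), against 26.0%. Only a gene with a 0 h peak can hold fewer, and 10 of the 16 members had one in this range. The same share over all genes of the range is not given here, and its part in the difference was not tested.

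The members' share of all peaks of the range at 10 h was 0.575 (0.221 to 1.26) of that at 4 h and 0.380 (0.136 to 0.927) of that at 0 h. The second ratio rests on 7 and 21 peaks. The proton pump genes held 1 of the 7 and 14 of the 21, and without them the ratio was 0.854 (0.244 to 2.81), from 6 peaks at 10 h and 8 at 0 h. It was 0.240 (0.0593 to 0.721) without Npc2 and turned to 1.26 (0.105 to 11.0) for peaks within 1 kb of a start, of which there were 2 at 10 h and 3 at 0 h. These 3 comparisons share their libraries.

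Of the 7 members' peaks at 10 h 6 had a 4 h peak within 500 bp (85.7%, 42.1 to 99.6), against 19.9% of the other 10 h peaks of the common range, and 3 of the 6 are those of Npc2. Within 200 bp the count was 3 of 7. In the other direction 8 of the 56 members' peaks at 4 h had a 10 h peak within 500 bp (14.3%, 6.38 to 26.2), against 4.88% of the others. None of the 7 had a 0 h peak as close (0%, 0 to 41.0), against 8.03% of the others. In the longer range 8 of 72 peaks at 4 h lay near a 0 h peak (11.1%, 4.92 to 20.7), against 4.46% of the others. Npc2 alone had 18 of the 4 h positions, and the part of such density in these shares was not tested.

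**Figure D5:**
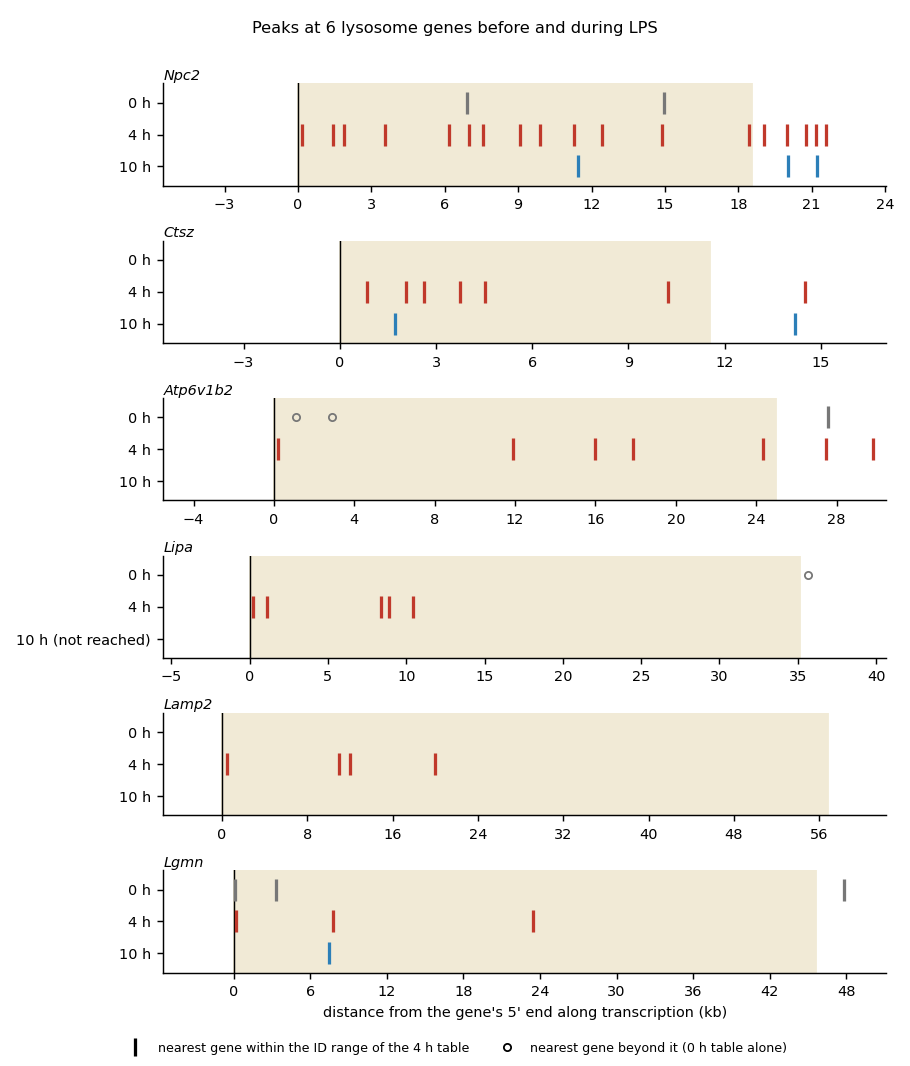
Positions of peaks at 0, 4 and 10 h along 6 lysosome genes, in kb from the gene's 5′ end, with the gene shaded. Ticks are peaks whose nearest gene is in the ID range of the 4 h table and circles are 0 h peaks whose nearest gene is beyond it. Npc2 shows 2, 18 and 3 peaks at 0, 4 and 10 h, and the 10 h table does not reach Lipa.

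By the authors' annotation, 27 of the 68 members' peaks at 0 h lay within 1 kb of a transcript start (39.7%, 28.0 to 52.3), against 27.3% of the other 0 h peaks. Introns held 27.9% of members' peaks, against 34.8%, and distal intergenic sites 7.35% (2.43 to 16.3), against 21.7%. The last share follows in part from the 5 kb rule, which leaves out distant peaks of members. A start in this annotation is that of any transcript, so that a peak 23158 bp inside Asah1 counts as 148 bp from a start. Only 10 of the 68 lay within 1 kb of the reference 5′ end of the member itself, at 10 members. The higher share near starts did not hold over the ID ranges. At 0 h 23.1% (8.97 to 43.6) of members' peaks in the longer range lay within 1 kb of a start, against 33.5% of the others, and 14.3% (3.05 to 36.3) in the common range, against 34.8%. At 4 h in the longer range the share was 25.0% (15.5 to 36.6), against 19.9% of the others, and between 1 and 3 kb from a start it was 26.4% (16.7 to 38.1), against 15.7%.

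A list of 87 further genes of the lysosome and its control was counted in the same way. A 0 h peak lay at 36 of them (41.4%), with 168 peaks in all, against 19.3% of protein-coding genes, and the lists were drawn up with earlier results of these data known. Of 20 additional lumenal proteins 8 held a peak, led by Psap (24 peaks), the precursor of the saposins, and Ctsb (17), cathepsin B. Of 16 membrane proteins 5 did, led by Litaf (19), a protein of late endosomes and lysosomes, and Slc29a3 (7), a nucleoside transporter. Of 11 additional pump subunits 3 did, with 18 peaks at Atp6v0d2, the d2 subunit of osteoclasts and macrophages. The 5 of them in the longer range each held more peaks at 4 h than at 0 h, but all except Atp6v1d had no 0 h peak and could not have held fewer. Of 19 sorting genes 7 did, with 2 peaks each at Ap3b1, a subunit of an adaptor that carries membrane proteins to the lysosome, and Vps33a, a tethering factor.

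Of 21 genes of TFEB and mTORC1 control 13 held a 0 h peak (61.9%), with 60 peaks in all, against 19.3% of protein-coding genes. This list too was drawn up with earlier results of these data known. Fnip2, a partner of folliculin, held 27, Mitf held 8, and Tfeb and Fnip1 held 5 each. Tfeb held 2 peaks at 4 h and 5 at 0 h in the longer range. Of the 27 further genes in that range 19 held more peaks at 4 h than at 0 h (70.4%), against 72.9% of all genes, and 4 held fewer. Ap3b1 stood at 18 peaks at 4 h and 1 at 0 h, and Rptor, the scaffold of mTORC1, at 16 and 2. Atp6v1e1, subunit E of the pump, stood at 7 and 0, whereas Slc29a3 stood at 2 and 7.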

How the data were processed

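RAW 264.7 chromatin was precipitated with an hnRNP UL1 antibody after enzymatic digestion, per the labels' protocols. Samples were grouped by title into ChIP and input at 0, 4 and 10 h, with 1 library each; the 3 input samples were not analysed here. CASAVA 1.8, BWA 0.7.12 and MACS2 2.1.0 with mouse build GRCm38 (mm10) were used, per the submitters' processing notes; their roles, the thresholds and any use of the input are not given in the sources used here. Per the file headers, the authors deposited positions (bp), an annotation, the nearest gene and the distance to its start for each peak, with no score. The last row of the 4 h table is incomplete and was left out.

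Genes were matched by symbol to the RefSeq annotation of GRCm38.p6, and all 46 matched. The reference gives no Ensembl IDs, so members without a row were placed in no ID range. The 2 genes at the ends of the ranges were left out. Counts, exact Clopper-Pearson intervals and ratios of shares (exact intervals given the summed count) were computed with Python 3.11.15, numpy 2.4.6, pandas 2.3.3 and scipy 1.17.1, and drawn with matplotlib 3.10.9. The counting was tested on simulated data. Backgrounds include the members. Every member is accounted for, with positions for those with the most peaks at 0 h or with LPS. Of the further lists up to 4 genes with the most 0 h peaks were named, and Atp6v1e1, Rptor and Slc29a3 at 4 h were chosen after their values were seen. The members and lists were chosen with earlier results of these data known. Motif counts around peaks need a genome sequence and were not run.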

Additional observations from a re-analysis of the deposited data

How the results depend on the processing

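The 29 members with a 0 h peak became 19 within the gene span alone and 19 without peaks in another protein-coding region, the second chosen after seeing the data; the 14 in the longer range became 9 within the span and 6 within 1 kb of a start. Assigning peaks by the gene named as nearest gave 41 peaks at 0 h, against 68 by position, and 36 peaks are in both counts. Of the 41, 7 were at proteases, 6 at other lumenal proteins and 2 at membrane proteins. Within 1 kb of a start 27 of the 68 remained, with 9 at proteases, 3 at glycosidases, 5 at other lumenal proteins and 6 at the proton pump. There the 4 h over 0 h ratio of shares was 1.24, and the 10 h over 0 h ratio of 0.380 turned to 1.26. The gene span held 2 glycosidase and 3 membrane protein peaks, 2 kb flanks 2 and 5 kb upstream 3 glycosidase peaks. Without Ctsd the proteases held 9. Within 200 bp, 3 peaks at 10 h and 5 at 4 h had a neighbour, and within 1000 bp 14 at 4 h. The 150 bases before a start held PU.1 in 1 member. With reference 5′ ends, chosen after seeing the data, 25.0% of peaks lay within 1 kb of the 5′ end of any gene, members or not. Leaving out the proton pump genes, and counting motif carriers by peaks in no other gene's region, were also chosen after seeing the data. The cause of these changes was not tested, beyond the fewer or more positions that each rule admits.

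No paired analysis was possible because each group has 1 library, and none was left out for the same reason. Depth and peak strength are unknown, and binding, read depth and calling threshold cannot be told apart between times. Members that no row names were placed in no range, so counts over a range leave out members that never held a peak. They also leave out Mcoln1, with 1 peak at 0 h in the longer range, and Cd68 and Man2b1, with 1 each at 4 h. Those peaks name neighbouring genes.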
